A study of Mus musculus with 3 samples.

Results

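The miR-148 and miR-152 family consists of miR-148a-3p, miR-148b-3p and miR-152-3p, and it is described here together with miR-22-3p, a liver miRNA with another seed. The members were chosen by name: all reads assigned to the 8 arms of the mouse precursors Mir148a, Mir148b, Mir152 and Mir22, of 404 miRNA arms found in the files. They comprised 41999 of 3450317 reads in mock, 46215 of 3681585 in TuD-miR-122 and 20024 of 2066892 in TuD-let-7. This was 3.05%, 3.18% and 4.11% of the non-target miRNA reads, which are the miRNA reads left once those of miR-122 and let-7 precursors are set aside.

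C57BL/6 mice, which are inbred, were given scAAV9, an adeno-associated virus vector with a self-complementary genome, and 4 weeks later RNAs of 18 to 30 nt were gel-purified from liver. All 3 groups received scAAV9: the mock vector expressed no decoy, TuD-miR-122 expressed a Tough Decoy against miR-122, and TuD-let-7 expressed one against let-7. A Tough Decoy is a vector-made hairpin RNA with exposed sites to which its target miRNA can bind. The study asked how such decoys affect the stability and integrity of miRNAs, and none of the miRNAs described here is a target of either decoy.

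Each group had 1 library, and the labels give neither the age, sex and number of animals nor the decoys' promoter. No difference therefore has a replicate check, no test between groups was made, and every interval below is an exact or (for arm ratios) Woolf 95% interval that covers counting error only. Levels are in RPM, reads scaled to 1000000 non-target miRNA reads, so 1 read stands for 0.726 RPM in mock, 0.689 with TuD-miR-122 and 2.05 with TuD-let-7, the shallowest library. The RNA came from whole liver, so the levels are not those of hepatocytes alone. Hepatocyte miRNAs other than the decoy target, miR-192-5p and miR-194-5p, summed to 91966 to 133518 RPM. Markers of other cells were present too and differed between the libraries: skeletal muscle miRNAs (3 of 3 listed) summed to 9739 RPM in mock against 921 with TuD-miR-122 and 213 with TuD-let-7, and pancreas miRNAs (4 of 4) to 119, 1613 and 162 RPM. Erythroid markers (3 of 3) ranged from 30916 to 48525 RPM, endothelial (2 of 2) from 21963 to 28777, stromal (4 of 4) from 19560 to 23119, immune (4 of 4) from 6334 to 8819 and epithelial (5 of 5) from 2028 to 4517; no marker was at 0 in every library. The part these markers have in any result below was not tested.

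A miRNA finds its targets mainly through its seed, bases 2 to 8 from the 5′ end, so guides with the same seed can repress the same mRNAs. The miR-148 and miR-152 family is known in liver for repressing genes of cholesterol handling, among them the LDL receptor and the cholesterol exporter ABCA1. miR-22 is broadly expressed, is abundant in heart and muscle as well as liver, and is known to repress the histone deacetylase HDAC4. Each precursor hairpin can yield a strand from either arm; the strand kept by Argonaute is the guide, and the other, usually rarer, is the passenger.

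The 4 guide sequences are shown because the seed, the bases that tell the family members apart and the 3′ ends decide how reads could be assigned. They are the RefSeq mature sequences (GRCm38.p6), 5′ to 3′, with the seed in capitals.
miR-148a-3p: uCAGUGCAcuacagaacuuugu
miR-148b-3p: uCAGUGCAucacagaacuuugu
miR-152-3p: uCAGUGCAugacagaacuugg
miR-22-3p: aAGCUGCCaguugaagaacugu
Among the 1679 mature mouse sequences of the RefSeq table, the seed CAGUGCA occurs in the 3 family members alone, and the seed AGCUGCC in miR-22-3p alone. Counted from base 1 at the 5′ end, miR-148a-3p and miR-148b-3p differ by C9U and U10C (miR-148a-3p base first), and miR-148a-3p and miR-152-3p by C9U, U10G and U20G. All 8 RefSeq mature starts were also the most frequent starts of the reads.

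The 4 precursors lie apart in the genome (GRCm38, GENCODE annotation). Mir148a (chr6:51269812-51269910, minus strand) overlaps no other annotated gene, and the nearest protein-coding gene, Nfe2l3, is 162760 bp away. Mir148b (chr15:103285125-103285221, plus strand) lies in an intron of Copz1 on the same strand, and Mir152 (chr11:96850393-96850465, plus strand) in an intron of Copz2 on the same strand. Copz1 and Copz2 are paralogs that encode zeta subunits of coatomer, the coat of Golgi transport vesicles. Mir22 (chr11:75463716-75463810, plus strand) lies in an exon of its noncoding host Mir22hg and in an exon of an annotated transcript of Tlcd2. The Mir22 hairpin is shown because its arm ratio is the one that differed most clearly between the libraries; the capitals mark miR-22-5p (left) and miR-22-3p (right).
Mir22: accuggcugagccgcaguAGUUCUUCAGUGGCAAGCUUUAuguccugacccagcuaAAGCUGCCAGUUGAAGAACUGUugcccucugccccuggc

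miR-22-3p was the most abundant of the 4 guides in every library. Its level was 14354 RPM in mock, 17760.3 with TuD-miR-122 and 26554 with TuD-let-7, from 19775, 25795 and 12950 reads, and it ranked 15, 14 and 10 among the 384 non-target miRNA arms. Mock was lowest and TuD-let-7 highest, with counting intervals that did not overlap. Such intervals are narrow for abundant miRNAs. For miR-21a-5p, miR-194-5p, miR-101b-3p and miR-192-5p, too, the interval of the ratio to mock excluded 1 with either decoy. This order depends on the scale: per 1000000 reads of the whole library miR-22-3p had 5731 in mock, 7006 with TuD-miR-122 and 6265 with TuD-let-7, so that TuD-miR-122 was highest. miR-148a-3p had 10435, 8538 and 9016 RPM (mock, TuD-miR-122, TuD-let-7), with ranks 20, 24 and 27, and was highest in mock. miR-152-3p had 2884 RPM in mock, 3149 with TuD-miR-122 and 2897 with TuD-let-7, with ranks 42, 40 and 39. miR-148b-3p was the rarest guide at 1195, 976 and 1048 RPM, with ranks 64, 76 and 68. The order miR-22-3p, miR-148a-3p, miR-152-3p, miR-148b-3p was the same in all 3 libraries, and no neighbours in it had overlapping intervals in any library. How well each sequence was ligated and amplified was not measured, so the order is one of reads.

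**Figure D1:**
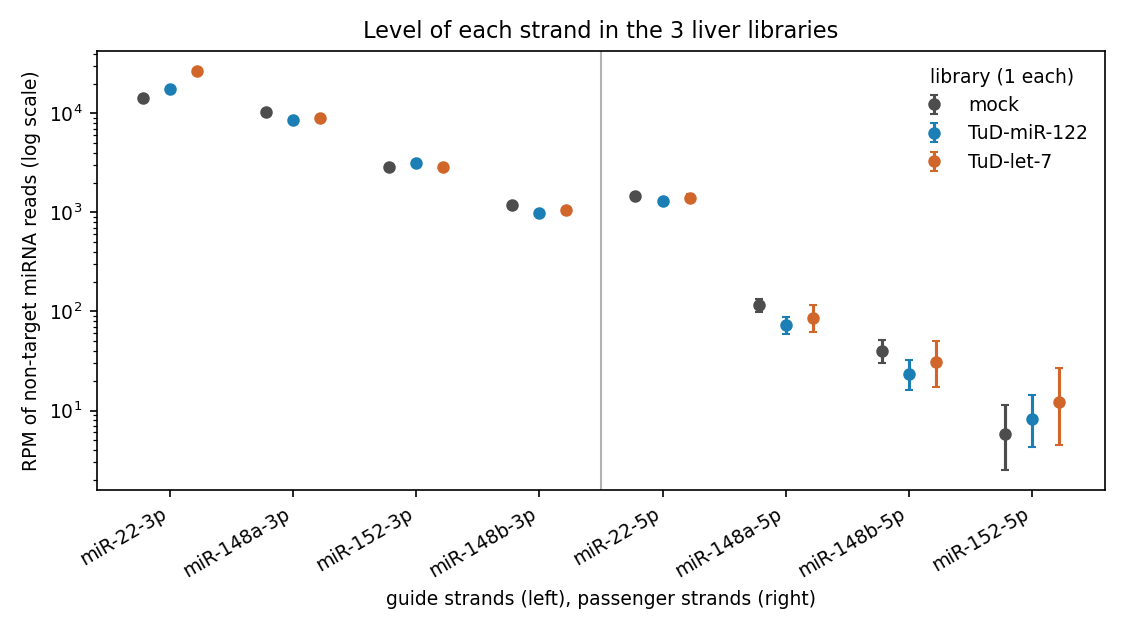
Level of each strand (log scale, RPM of non-target miRNA reads) in each of the 3 libraries; points are single libraries and bars are 95% counting intervals. The 4 guides keep 1 order in all libraries, miR-22-3p is at 14354 RPM in mock and 26554 in TuD-let-7 on this scale, and the passenger strands to the right of the line lie below their guides.

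Against mock, no guide passed the 2-fold rule with either decoy. This rule asks for at least 100 reads over both libraries and a counting interval wholly above 2 or below 0.5. For TuD-miR-122 against mock it was met by 0 of the 4 guides, where 18.5% of 227 non-target miRNAs met it (13.7% higher, 4.85% lower). For TuD-let-7 against mock it was met by 0 of 4, where 7.77% of 193 met it (3.63% higher, 4.15% lower), and for TuD-miR-122 against TuD-let-7 by 0 of 4, where 20.2% of 213 met it (17.4% higher, 2.82% lower). Fewer cells that carry a miRNA and less of it per cell cannot be told apart in whole liver.

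The largest ratio among the guides was that of miR-22-3p in TuD-let-7. It was 1.85 times mock (interval 1.81 to 1.89), and 15 of 193 miRNAs had a higher ratio. In TuD-miR-122 it was 1.24 times mock (1.21 to 1.26), with 63 of 227 miRNAs higher, and TuD-miR-122 was 0.669 of TuD-let-7 (0.655 to 0.683). With all reads of the library as the base, the last ratio turned to 1.12 (1.09 to 1.14). At a 1.5-fold limit, used as an alternative to the 2-fold rule, miR-22-3p in TuD-let-7 was the only one of the 4 guides past it against mock, and 9.33% of 193 miRNAs were past it in the higher direction (19.7% in either). In TuD-miR-122 against mock 0 of the 4 guides were past it, where 15.4% of 227 were in the higher direction and 23.3% in either, and between the decoys 0 of 4 were, where 23.0% and 33.3% of 213 were. The ratio of TuD-let-7 to mock also depends on the scale: with all reads as the base it was 1.09 (1.07 to 1.12). That base lowers the median ratio of all miRNAs in TuD-let-7 against mock by 0.76 on the log2 scale, and moves the 2-fold calls there from 7 higher and 8 lower to 4 higher and 38 lower. The median of all miRNAs on the main scale was 0.986 with TuD-miR-122 and 0.983 with TuD-let-7 against mock.

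miR-148a-3p and miR-148b-3p were lower in both decoy libraries than in mock by nearly equal factors. miR-148a-3p was at 0.818 of mock (0.799 to 0.838) in TuD-miR-122 and 0.864 (0.835 to 0.894) in TuD-let-7. miR-148b-3p was at 0.817 (0.761 to 0.878) and 0.877 (0.793 to 0.969). Both comparisons share the mock library, so a low or high value there would enter both. The direction against mock held with all reads as the base, where TuD-let-7 gave 0.511 for miR-148a-3p and 0.518 for miR-148b-3p. These ratios lie well within the spread of the other miRNAs: 62 of 227 had a lower ratio than miR-148a-3p in TuD-miR-122 and 61 of 193 in TuD-let-7.

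miR-152-3p did not share the lower levels of its 2 relatives. Its ratio to mock was 1.09 (1.05 to 1.14) in TuD-miR-122 and 1.005 (0.945 to 1.07) in TuD-let-7, an interval that spans 1. On the all-reads base the latter was 0.594 (0.558 to 0.631). The summed family was at 0.873 of mock (0.855 to 0.890) in TuD-miR-122 and 0.893 (0.868 to 0.919) in TuD-let-7, so the total of reads with the seed CAGUGCA differed from mock by less than the level of miR-148a-3p did.

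**Figure D2:**
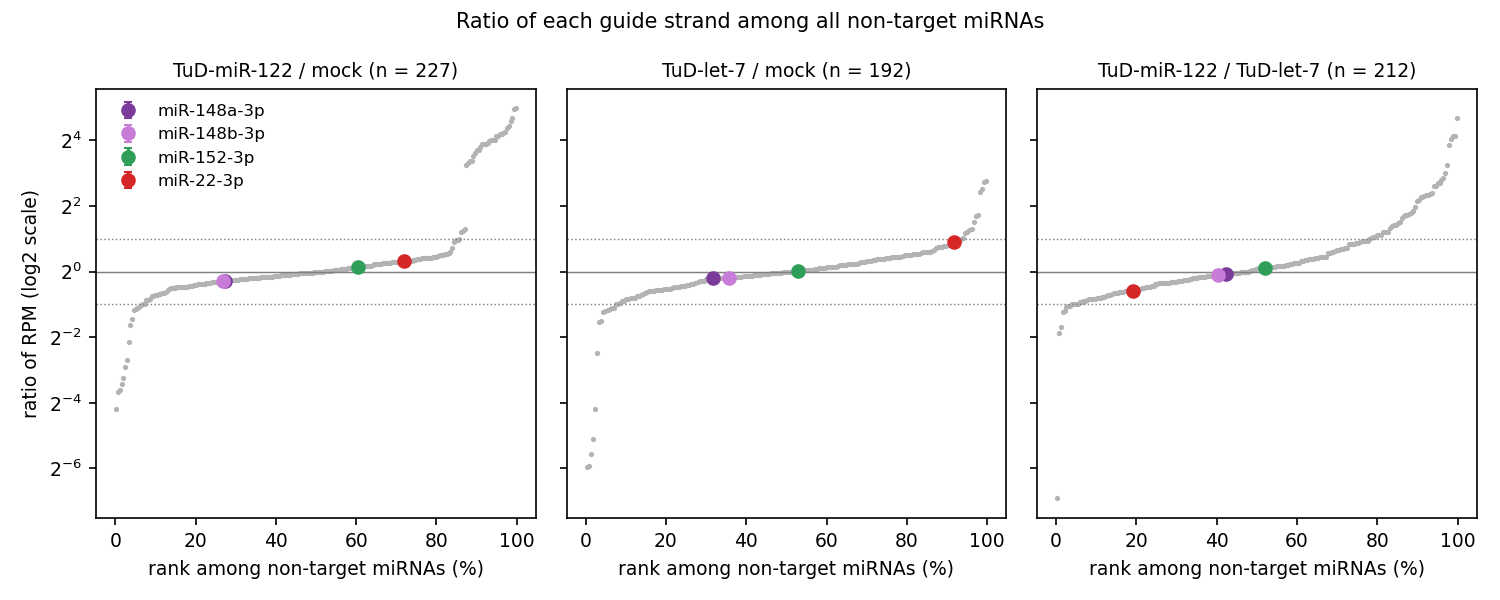
Ratio of RPM (log2 scale) of every non-target miRNA with at least 100 reads over both libraries (grey), in rank order, with the 4 guides in colour and 95% counting intervals; miRNAs with 0 reads in either library are left out and dotted lines mark 2-fold. The guides lie in the flat middle of each curve except miR-22-3p in 2 comparisons. It is at 1.85 in TuD-let-7 against mock, with 15 of 193 miRNAs above it. In TuD-miR-122 against TuD-let-7 it is at 0.669, with 41 of 213 miRNAs below it.

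Ratios between members within a library do not depend on the scale. Within the family miR-148a-3p made up 71.9% of the reads in mock (71.3 to 72.5), 67.4% with TuD-miR-122 (66.7 to 68.1) and 69.6% with TuD-let-7 (68.4 to 70.7). miR-152-3p made up 19.9% (19.3 to 20.4), 24.9% (24.2 to 25.5) and 22.4% (21.3 to 23.4). The composition thus differed between all 3 libraries beyond counting error, with mock having the most miR-148a-3p and the least miR-152-3p. Proportions of miRNAs other than the 4 guides were not compared in this way, so such a difference is not shown to be particular to them. The pair miR-148a-3p and miR-148b-3p, from different chromosomes, kept 1 proportion: 8.73 reads of miR-148a-3p per read of miR-148b-3p in mock (8.30 to 9.20), 8.74 with TuD-miR-122 (8.28 to 9.25) and 8.60 with TuD-let-7 (7.85 to 9.45). By contrast there were 3.62, 2.71 and 3.11 reads of miR-148a-3p per read of miR-152-3p, with intervals of 3.49 to 3.75, 2.62 to 2.81 and 2.93 to 3.31. Since miR-148a-3p and miR-148b-3p differ by adjacent bases, a read with C9T in miR-148a-3p equals a read with C10T in miR-148b-3p, and these 106, 142 and 54 reads were assigned to neither on exact matching. miR-22-3p had 1.38, 2.08 and 2.95 reads per read of miR-148a-3p, and these intervals did not overlap (1.35 to 1.41, 2.04 to 2.13 and 2.85 to 3.05).

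The miRNAs whose pair of ratios lay nearest, by Euclidean distance of the log2 ratios to mock over the 3 libraries, differed by member. Of 49 candidates with at least 1000 reads in every library, the nearest to miR-148b-3p was miR-148a-3p, at a distance of 0.02, with miR-191-5p and miR-93-5p next at 0.07 each. For miR-148a-3p, 48 candidates were ranked; miR-148b-3p, below 1000 reads in TuD-let-7, was not among them, and miR-191-5p (0.07), miR-93-5p (0.08) and miR-34a-5p (0.15) were nearest. For miR-152-3p these were miR-30b-5p (0.04), miR-146-5p (0.13) and miR-29a-3p (0.16). Among the candidates, the nearest to miR-22-3p lay farther off than the nearest to each other guide. It was miR-185-5p at 0.17 with ratios of 1.13 and 2.004, before miR-140-3p at 0.18 with 1.34 and 1.68, and miR-125b-5p at 0.51. miR-423-5p, with ratios of 1.30 and 1.94, had too few reads to be a candidate. These distances rest on 2 ratios that share mock and describe these libraries only.

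Other miRNAs of hepatocytes and lipid metabolism had a median ratio to mock near that of the family in TuD-miR-122 and above it in TuD-let-7. Of 20 listed, 6 were above mock and 14 below in TuD-miR-122, where 110 of all 227 miRNAs were above and 117 below. The median ratio was 0.865 against 0.873 for the summed family and 0.986 for all 227. None of the 20 passed the 2-fold rule, which 18.5% of the 227 passed. In TuD-let-7, 12 were above and 8 below (92 and 101 of all 193), with a median of 1.06 against 0.893 for the family and 0.983 for all 193. There miR-33-5p, which is encoded in Srebf2 and represses cholesterol export, was at 2.82 times mock and miR-802-5p at 0.178. Both were named for passing the rule, which 7.77% of the 193 passed. In TuD-miR-122 against TuD-let-7, 8 of the 20 were above and 12 below (112 and 101 of all 213), with a median of 0.791 against 1.07 for all 213. Here miR-802-5p (2.86) passed the rule higher and miR-103-3p (0.471) and miR-107-3p (0.439) passed it lower, where 20.2% of the 213 passed. The 4 most abundant members, miR-21a-5p, miR-194-5p, miR-101b-3p and miR-192-5p, had ratios of 1.05, 0.865, 0.941 and 0.8002 in TuD-miR-122 and of 0.828, 1.35, 1.22 and 1.02 in TuD-let-7. Of 17 other intronic or host-gene miRNAs, 9 were above and 8 below mock in TuD-miR-122 (median 1.02, none past the rule) and 8 above and 9 below in TuD-let-7 (median 0.988, miR-33-5p past the rule). In TuD-miR-122 against TuD-let-7, 7 were above and 10 below (median 0.875), with miR-15b-5p (2.31) and miR-16-5p (2.08) past the rule higher and miR-103-3p and miR-107-3p, also in the first list, past it lower. Their 4 most abundant members, miR-26a-5p, miR-16-5p, miR-126a-3p and miR-26b-5p, stood at 1.03, 1.05, 1.28 and 0.980 in TuD-miR-122 and at 0.775, 0.502, 1.08 and 0.613 in TuD-let-7. Across these hosts the ratios to mock thus lay on both sides of the values of miR-148b-3p and miR-152-3p.

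The passenger strands were far rarer than the guides, and by very different factors. miR-148a-5p had 159 reads in mock, 105 with TuD-miR-122 and 42 with TuD-let-7 (115, 72.3 and 86.1 RPM). miR-148b-5p had 55, 34 and 15 reads (39.9, 23.4 and 30.8 RPM), and miR-152-5p only 8, 12 and 6 (5.81, 8.26 and 12.3 RPM). miR-22-5p was the abundant passenger, with 2007, 1877 and 690 reads, or 1457, 1292 and 1415 RPM, a level above that of miR-148b-3p in every library. In mock there were 9.85 guide reads per passenger read for Mir22, 29.9 for Mir148b, 90.4 for Mir148a and 497 for Mir152, the last with an interval of 252 to 1151.

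The Mir22 arm ratio differed between the libraries. Mir22 gave 9.85 guide reads per passenger read in mock (9.41 to 10.3), 13.7 with TuD-miR-122 (13.1 to 14.4) and 18.8 with TuD-let-7 (17.4 to 20.3). Each interval lies apart from the others, with mock lowest. Against mock the ratio was 1.39 times as high in TuD-miR-122 (1.31 to 1.49) and 1.90 times in TuD-let-7 (1.74 to 2.08). Among precursors with at least 20 reads on each arm, 11 of 58 had a higher change in TuD-miR-122 and 2 of 35 in TuD-let-7. In TuD-miR-122 against TuD-let-7 it was 0.732 times as high (0.669 to 0.801), and 4 of 36 precursors were lower. The passenger strand itself was at 0.887 of mock (0.833 to 0.945) and 0.971 (0.889 to 1.06), while miR-22-3p was at 1.24 and 1.85. With all reads as the base, TuD-let-7 to mock was 0.574 (0.526 to 0.626) for the passenger and 1.09 for the guide, so the strand that differed more from mock there depends on the scale. An arm ratio past 1.5-fold was found for 8.57% of those 35 precursors in TuD-let-7 against mock, for 1.72% of 58 in TuD-miR-122 against mock and for 11.1% of 36 in TuD-miR-122 against TuD-let-7. Of the 4 precursors, Mir148a and Mir22 had these 20 reads in all 3 comparisons, Mir148b only in TuD-miR-122 against mock, and Mir152 in none. Among these it was found for Mir22 in TuD-let-7 against mock. This limit and the minimum of 20 reads were set after the values were seen. The scale cancels in the arm ratios themselves. With 1 mismatch allowed, the Mir22 arm ratios were 10.5, 15.2 and 22.4.

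For the family the arm ratios were less certain. Mir148a had 90.4, 118 and 105 guide reads per passenger read, and its change to TuD-miR-122 was 1.31 (1.02 to 1.67) and to TuD-let-7 1.16 (0.823 to 1.63). Mir148b had 29.9, 41.7 and 34.1, with changes of 1.39 (0.903 to 2.15) and 1.14 (0.638 to 2.03). For Mir152, with 6 to 12 passenger reads, the ratios of 497, 381 and 236 had wide intervals that overlapped. At this depth no change of the arm ratio could be seen for Mir148b or Mir152.

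The 3′ ends differed between the members. A matching part is the stretch of a read, from its 5′ end, that equals the precursor. For miR-148b-3p it was 22 nt in 86.9%, 86.0% and 85.7% of reads (mock first, then TuD-miR-122 and TuD-let-7), and for miR-152-3p it was 21 nt in 90.1%, 90.8% and 80.4%. miR-148a-3p was less uniform: 67.0%, 66.2% and 64.2% had 22 nt, 14.4%, 18.7% and 16.5% had 21 nt, and 16.2%, 12.7% and 13.4% had 23 nt. The 23-nt form was thus more frequent in mock than in either decoy library, and the 21-nt form less frequent than in both. These forms were not set beside those of other miRNAs. miR-22-3p had 22 nt in 61.2%, 62.9% and 59.0% and 20 nt in 10.4%, 10.2% and 11.6% of reads. It had more reads with 21 nt (3462, 3840 and 2296) than with 20 nt (2056, 2619 and 1508). Its untailed 20-nt form made up 9.23%, 8.77% and 8.16% of its reads, whereas untailed 20-nt reads of the 3 family members stayed under 1% in every library. Matching parts under 21 nt were called trimmed. The trimmed share of miR-22-3p was 15.3% in mock (14.8 to 15.8), 14.3% with TuD-miR-122 (13.9 to 14.7) and 18.0% with TuD-let-7 (17.4 to 18.7). Without reads of 20 matching bases followed by T it was 14.7% (14.2 to 15.2), 13.4% (13.0 to 13.9) and 15.2% (14.6 to 15.8), so that mock and TuD-let-7 overlapped.

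**Figure D3:**
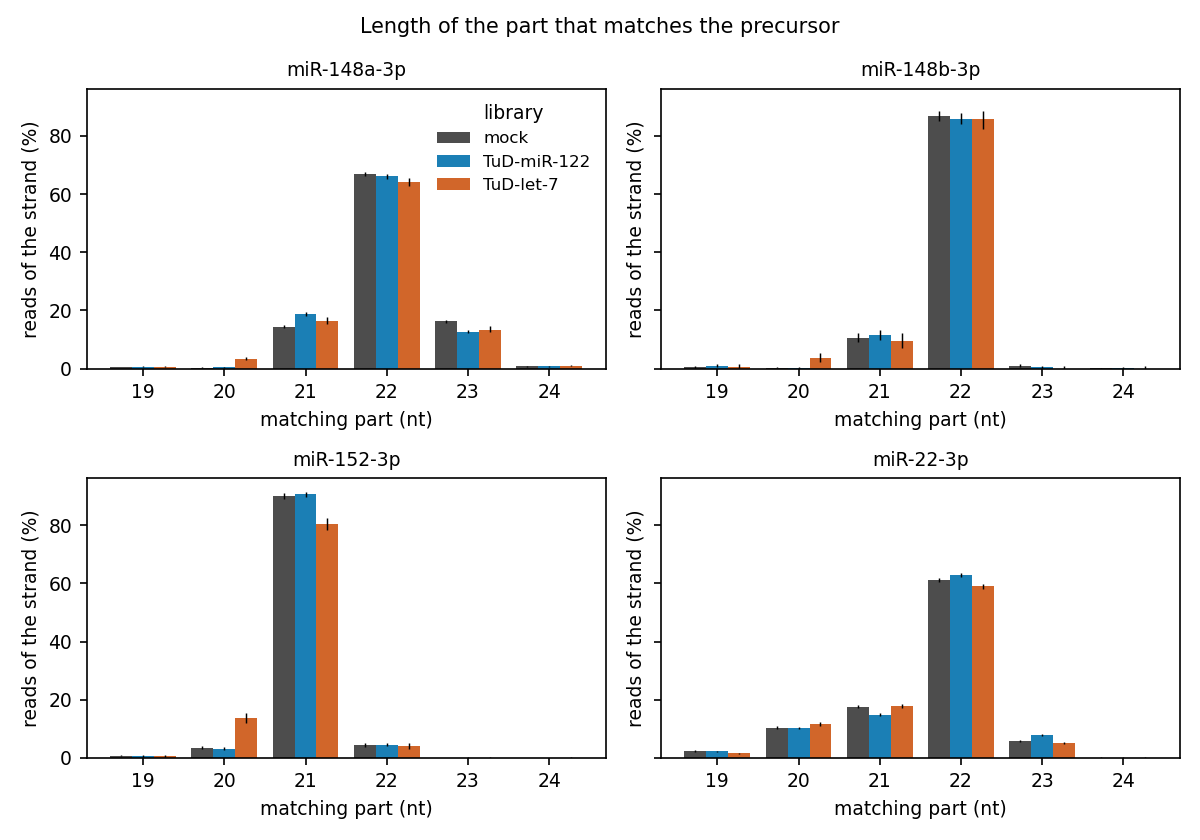
Share of each guide's reads (%) by the length of the part that matches the precursor (19 to 24 nt) in the 3 libraries; bars are single libraries and lines 95% counting intervals. miR-148b-3p and miR-152-3p have 1 dominant length, 22 and 21 nt, miR-148a-3p spreads over 21 to 23 nt, and the 20-nt part is higher in TuD-let-7 than in mock for the 3 family members.

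A tail is 1 to 5 bases at the 3′ end that do not match the precursor. The 4 guides had tails on very different shares of reads. Tailed reads were 16.6% (15.99 to 17.2) of miR-148a-3p in mock, 14.7% (14.1 to 15.4) in TuD-miR-122 and 19.3% (18.1 to 20.5) in TuD-let-7. miR-148b-3p had 18.0%, 17.8% and 21.5%, and miR-22-3p 28.0% (27.4 to 28.6), 23.7% (23.2 to 24.3) and 30.1% (29.3 to 30.9). miR-152-3p was tailed most, at 42.4% (40.8 to 43.9), 42.8% (41.3 to 44.2) and 49.0% (46.4 to 51.7). The order miR-152-3p, miR-22-3p, miR-148b-3p, miR-148a-3p was the same in all libraries, though the intervals of the last 2 overlapped in mock and in TuD-let-7.

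The kind of base added differed too. miR-148a-3p and miR-22-3p carried mainly A: tails of only A were 13.8%, 12.0% and 13.2% of reads for miR-148a-3p and 16.8%, 13.5% and 16.4% for miR-22-3p. miR-152-3p carried A at a like share, 14.1%, 14.8% and 15.99%, and in addition tails of only T on 22.05%, 22.9% and 25.8% of reads. T-only tails include reads with 20 matching bases and then T, in which an added uridine and a substitution at position 21 cannot be told apart. T after 21 matching bases was found on 22.8% (21.5 to 24.1), 23.7% (22.5 to 24.96) and 18.4% (16.4 to 20.5) of all miR-152-3p reads, lowest in TuD-let-7. Fewer miR-152-3p reads had 21 matching bases there (80.4%, against 90.1% in mock and 90.8% with TuD-miR-122). Among the reads with 21 matching bases, a tail starting with T was found on 25.3% in mock, 26.1% with TuD-miR-122 and 22.9% with TuD-let-7. T-only tails were 0.216%, 0.355% and 2.46% of miR-148a-3p, 3.16%, 4.37% and 8.81% of miR-148b-3p and 2.30%, 3.28% and 3.16% of miR-22-3p. The T-tailed and A-tailed 21-nt forms of miR-152-3p and the A-tailed 22-nt forms of the other guides are shown because the base after position 21 decides what can be seen; capitals mark the tail, and T stands for U as in the reads.
miR-152-3p plus T: tcagtgcatgacagaacttggT
miR-152-3p plus A: tcagtgcatgacagaacttggA
miR-148a-3p plus A: tcagtgcactacagaactttgtA
miR-148b-3p plus A: tcagtgcatcacagaactttgtA
miR-22-3p plus A: aagctgccagttgaagaactgtA
The first of these made up 19.9%, 21.1% and 16.1% of all miR-152-3p reads, the second 10.4%, 11.0% and 11.5%. The A-tailed forms made up 5.75%, 4.27% and 4.91% of miR-148a-3p, 5.47%, 3.39% and 4.89% of miR-148b-3p and 6.60%, 5.09% and 6.05% of miR-22-3p. Each was the most frequent tailed form of its guide, except that in TuD-let-7 miR-22-3p had more reads of 21 nt plus A (6.62%). In the precursors of miR-148a-3p, miR-148b-3p and miR-22-3p the base after position 21 is U, so a U added to their 21-nt form cannot be told apart from the 22-nt form, and the T-only shares of these guides and of miR-152-3p are not on 1 footing. After 22 matching bases, where a T is not templated for miR-148a-3p or miR-148b-3p, a tail starting with T was found on 0.384%, 0.512% and 0.390% of the 22-nt part of miR-148a-3p and on 6.78%, 7.71% and 8.90% of that of miR-148b-3p.

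**Figure D4:**
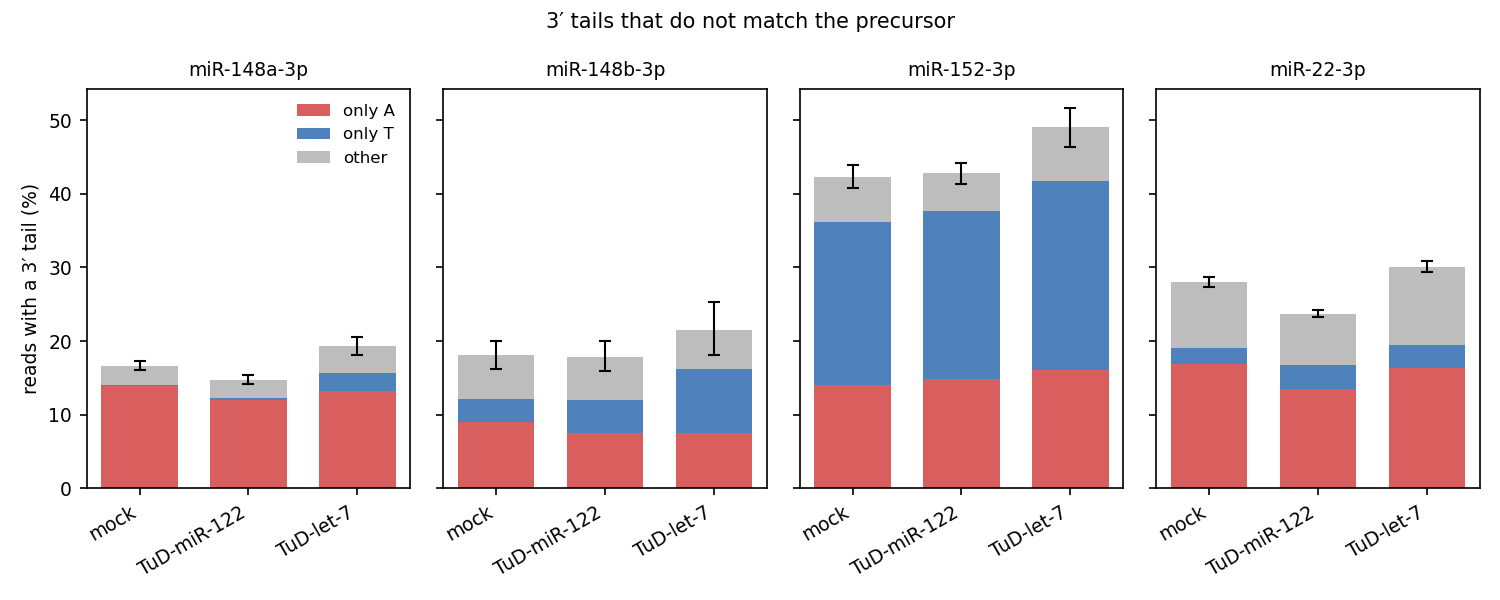
Share of each guide's reads (%) with a 3′ tail, stacked by tail made only of A, only of T or other bases, in the 3 libraries; lines are 95% counting intervals of the total. miR-152-3p is tailed on 42.4% to 49.0% of reads with T-only tails on 22.05% or more, while T-only tails of the other guides stay at 8.81% or less.

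Between libraries, a difference in a share was counted when it passed 5 percentage points with intervals apart, for miRNAs that had at least 1000 reads in each of the libraries compared. For tailing, 0 of the 4 guides passed in TuD-miR-122 against mock, where 12.2% of 74 miRNAs did. In TuD-let-7 against mock miR-152-3p passed, 6.68 points higher, where 42.9% of 49 did and the median difference was 2.69 points; miR-148b-3p had too few reads there. Without reads of 20 matching bases followed by T, this difference of miR-152-3p turned to -3.43 points (37.3% against 40.7%). In TuD-miR-122 against TuD-let-7, miR-152-3p (6.26 points lower) and miR-22-3p (6.39 points lower) passed, where 51.0% of 49 did. Without those reads both calls ended: TuD-miR-122 minus TuD-let-7 was then 4.40 points for miR-152-3p, a turned direction, and -4.42 points for miR-22-3p. For trimming, 0 of 4 passed in TuD-miR-122 against mock (2.70% of 74). miR-152-3p passed in TuD-let-7 against mock, at 15.6% trimmed (13.7 to 17.6) against 5.44% (4.75 to 6.19), and against TuD-miR-122 at 4.68%, where 40.8% and 51.0% of 49 miRNAs passed. The TuD-let-7 differences of the members thus stood among many others of that library.

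Most of the trimmed reads of miR-152-3p in TuD-let-7 had 20 matching bases followed by T in place of the G at position 21. Such reads were 1.64% of miR-152-3p in mock, 1.09% with TuD-miR-122 and 11.7% with TuD-let-7. They were 0.0765%, 0.153% and 3.16% of miR-148a-3p, 0 of 1646 reads (exact interval up to 0.224%), 0.0705% and 3.33% of miR-148b-3p, and 0.657%, 0.849% and 2.83% of miR-22-3p. All 4 guides have G at position 21, and all 4 were highest in TuD-let-7. Without these reads the trimmed share of miR-152-3p was 3.801%, 3.59% and 3.82%. Whether the T is a substitution or an added base on a 20-nt form cannot be told apart. With reads that continued past position 21, G21T was found on a median of 2.92% of reads of 10 other miRNAs with G there in TuD-let-7, against 0.212% in mock. These 10 ranged widely, from 0 to 10.3% in TuD-let-7 and from 0 to 1.33% in mock. This position was looked at after the trimmed shares were seen.

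Single-base differences from the precursor were more frequent in TuD-let-7 for every guide. Over positions 1 to 18, reads with 1 mismatch were 8.97% of miR-148a-3p in mock, 12.6% with TuD-miR-122 and 19.8% with TuD-let-7. For miR-148b-3p they were 12.8%, 18.1% and 24.4%, for miR-152-3p 7.39%, 9.51% and 22.3%, and for miR-22-3p 16.1%, 19.1% and 31.1%. The miR-148b-3p shares rest on 212, 271 and 141 mismatched reads. Of these, 106, 142 and 54 equal miR-148a-3p with C9T and were counted for both guides, so these shares may be too high. Counting reads with 1 mismatch would raise the non-target miRNA reads by 7.41%, 8.23% and 24.0%. TuD-let-7 was highest for every guide, and mock lowest.

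Most of the excess sat at a few positions and was found in other miRNAs with the same base there. At position 4, miR-148a-3p differed in 7.44% of TuD-let-7 reads against 1.56% in mock, chiefly as G4T, and 5 other miRNAs with G4 had a median G4T of 5.47% against 1.28%. In TuD-miR-122 position 14 of miR-148a-3p differed in 3.54% of reads against 0.198% in mock, chiefly as G14T, with a median of 3.38% against 0.208% in 14 other miRNAs. In TuD-let-7, position 2 of miR-22-3p differed in 7.64% of reads, chiefly as A2C, and position 10 in 7.49%, chiefly as G10T. There A2C had a median of 5.09% in 17 other miRNAs and G10T of 5.89% in 13, against 0.0130% and 0.796% in mock. Position 3 of miR-148a-3p differed in 3.49% of TuD-let-7 reads, with A3C in 122 of these 125 reads. A3C in 5 other miRNAs ranged from 1.08% to 2.99% there. These substitutions were selected after their values were seen. Other miRNAs with the same base at the same position thus also had raised shares in the same library, though not always as high as the members.

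**Figure D5:**
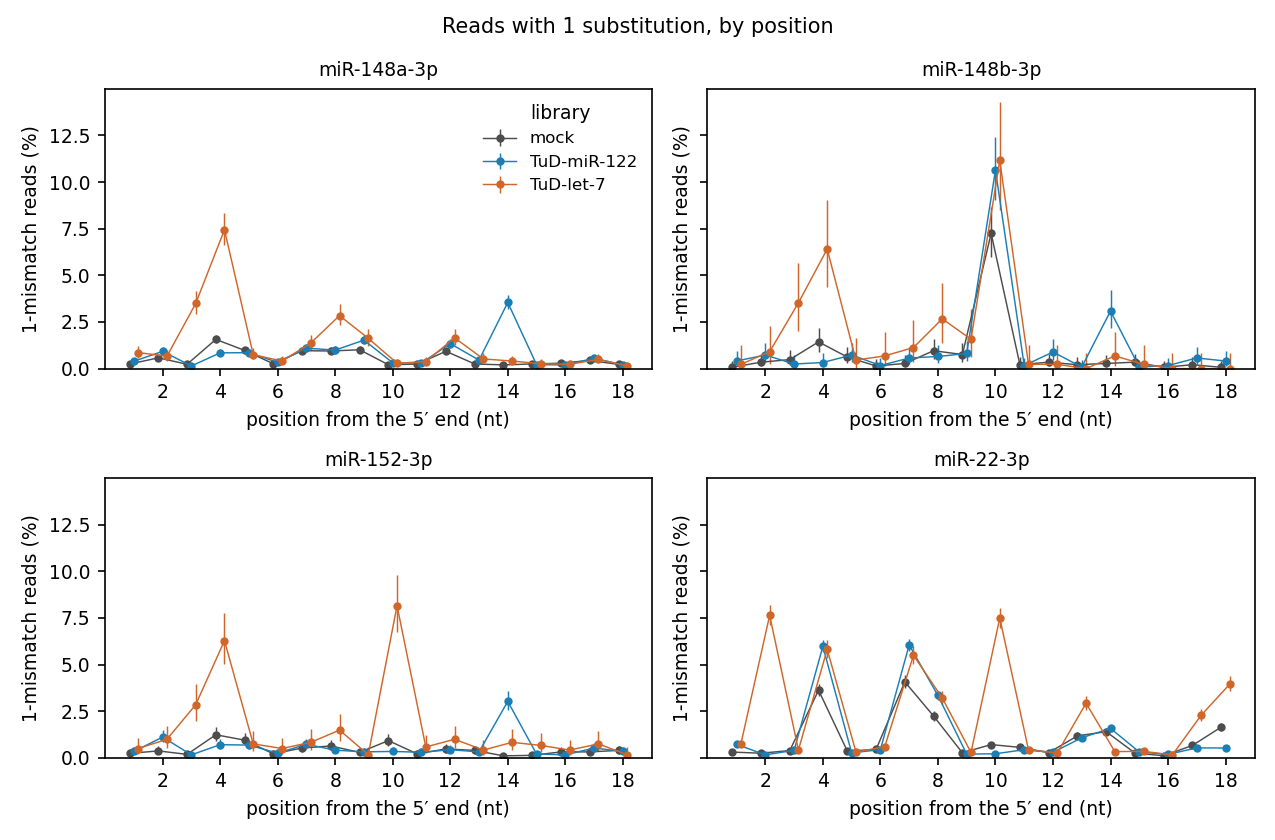
Share of reads (%) with 1 substitution at each position from the 5′ end (1 to 18) of each guide in the 3 libraries; points are single libraries and lines 95% counting intervals. In TuD-let-7 position 4 of miR-148a-3p reaches 7.44%, in TuD-miR-122 position 14 reaches 3.54%, and position 10 of miR-148b-3p holds reads that equal miR-148a-3p with C9T.

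One pattern of miR-22-3p was not shared in this way. Its cytosines at positions 4, 7 and 8, which all lie in the seed, were read as T in all 3 libraries. The 3 changed forms are shown with the substituted base in capitals.
C4T: aagTtgccagttgaagaactgt
C7T: aagctgTcagttgaagaactgt
C8T: aagctgcTagttgaagaactgt
C4T was found on 3.23% of reads in mock (2.94 to 3.54), 5.69% with TuD-miR-122 (5.36 to 6.02) and 5.61% with TuD-let-7 (5.14 to 6.12). C7T was found on 3.87%, 5.89% and 5.37%, and C8T on 1.89%, 3.12% and 2.97%. Mock was lowest at all 3 positions. The fourth cytosine of miR-22-3p gave C19T on 0.412%, 0.765% and 0.514%, far below the other 3. Over 169 cytosine positions of 45 other miRNAs the median C-to-T share was 0.369%, 0.761% and 0.544%, and the highest, C10T of miR-19a-3p, was 1.84%, 3.804% and 3.81%. None of the 169 positions was above the lowest of the 3 miR-22-3p positions in mock, and 1 was in each decoy library. C7T and C8T occurred together in 96, 398 and 126 reads, whereas C4T and C7T together occurred in 3, 5 and 2. The first 18 nt of the C4T and C8T forms were in no annotated transcript and those of the C7T form in Nkx2-3 alone; the unchanged sequence was in Mir22, Mir22hg and Tlcd2. The positions were chosen after their values were seen, and whether the bases differ in the RNA or arose in library preparation or sequencing was not tested.

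The 5′ start sets the seed, and it was precise for all 4 guides. A start 1 nt downstream was found on 0.0416% of the untailed reads of miR-148a-3p in mock (5 of 12014 reads, 0.0135 to 0.0971), 1.27% with TuD-miR-122 (136 of 10721, 1.07 to 1.499) and 1.25% with TuD-let-7 (45 of 3598, 0.914 to 1.67). In mock this was the lowest of 71 miRNAs with at least 300 untailed reads, whose median was 1.28%, while the decoy values lay near the medians of 1.56% and 1.38%. For miR-148b-3p the shares were 0.221%, 1.68% and 1.71%, from 3, 20 and 7 reads. Its share in mock was the lowest of the 3 libraries, and 4 of the 71 miRNAs were below it there. miR-152-3p had 0.477%, 0.905% and 0.959%, with overlapping intervals, and miR-22-3p 1.97%, 1.73% and 1.68%, highest in mock with overlapping intervals. The rise from mock of 1.23 points for miR-148a-3p in TuD-miR-122 was exceeded by 8 of 71 miRNAs and that of 1.21 points in TuD-let-7 by 7 of 71, where the medians of all were 0.26 and 0.05 points. Both rises rest on the 5 reads of the mock library. The minimum of 300 reads was set after the values were seen.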

How the data were processed

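The files hold, per library, each distinct insert and its raw read count as deposited by the authors; of adapter removal, filters, aligner and genome build, nothing is recorded here (not given in the sources used here). Per the labels' protocols, RNA was extracted with mirVana and 18 to 30 nt RNAs were gel-purified. Inserts ran from 15 to 30 nt, and 3450317, 3681585 and 2066892 reads were held in mock, then TuD-miR-122, then TuD-let-7, of which 78.5%, 72.0% and 73.1% were assigned to miRNAs. The files give no molecular identifiers, so PCR copies count as reads and intervals cover counting error only.

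Inserts were matched to the 1174 miRNA precursors of GENCODE mouse release M21 (GRCm38). The 5′ end of an arm was the most frequent start of untailed reads (at least 10); arms with the same first 22 nt were merged (459 arms gave 404 entries, 384 of them non-target). A read starts at that end, matches for at least 16 nt and has a tail of at most 5 nt; 0.327% to 0.347% of miRNA reads fitted several entries and entered no single miRNA. The base of RPM was 1377695, 1452394 and 487681 reads. Level ratios and guide reads per passenger read have exact conditional-binomial intervals, shares have Clopper-Pearson intervals, and changes of arm ratios have Woolf intervals. A 0 allows up to 3 reads, which is 2.18, 2.07 and 6.15 RPM. Mature sequences are from RefSeq (GRCm38.p6), where all 8 arms matched.

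Named were the 4 guides and their passengers, the 3 nearest miRNAs per guide, up to 4 abundant members per list and members past the rule. The members and lists were chosen with earlier results of these data known. The counting was tested on simulated libraries; there, ratios of RPM moved together when an abundant miRNA changed. Alternatives were other scalings, starts, match lengths, mismatches, single reads, tail and trimming definitions and read minimums. Python 3.11.15, numpy 2.4.6 and scipy 1.17.1 were used.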

Additional observations from a re-analysis of the deposited data

How the results depend on the processing

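With 1 library per group, an alternative was set against the counting interval of the reported value. For level ratios, 97 of 145 stayed inside it with the direction unchanged. A level ratio that turned direction was not counted among these, even inside the interval. Inside it were also 89 of 132 share differences and 32 of 36 arm ratios, and 10 of 15 counts stayed within 1.5 times. No paired analysis was possible because each group has 1 library. Depth limits the Mir152 and Mir148b passengers. The causes of the moves below were not tested, except where a definition drops reads.

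Scaled to all reads, TuD-let-7 to mock was 0.511 (miR-148a-3p), 0.518 (miR-148b-3p), 0.594 (miR-152-3p, now below 1), 1.09 (miR-22-3p) and 0.528 (family), and TuD-miR-122 to TuD-let-7 was 1.58, 1.56, 1.82, 1.12 and 1.63, of which all but miR-152-3p had been below 1. Scaled to all miRNA reads, TuD-let-7 to mock was 0.548, 0.556, 0.637, 1.17 and 0.566, TuD-miR-122 to TuD-let-7 was 1.61, 1.58, 1.85, 1.14 and 1.66, and TuD-miR-122 to mock was 0.881, 0.880, 1.18, 1.33 and 0.939. With median-of-ratios size factors, TuD-let-7 to mock was 0.834 (miR-148a-3p), 0.969 (miR-152-3p, below 1), 1.78 (miR-22-3p) and 0.862 (family), and TuD-miR-122 to mock was 0.790 (miR-148a-3p), 1.19 (miR-22-3p) and 0.842 (family). With the other decoy library in place of mock, TuD-let-7 gave 1.06, 1.07, 0.920, 1.495 and 1.02 in the same order of miRNAs, turning the direction for all but miR-22-3p, and TuD-miR-122 gave 0.947 (miR-148a-3p), 0.932 (miR-148b-3p), 0.669 (miR-22-3p, turned) and 0.977 (family).

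With 1 mismatch allowed, TuD-miR-122 to TuD-let-7 was 1.00126 for the family (just turned) and 0.981 for miR-148a-3p, TuD-miR-122 to mock was 0.891 for the family and 1.27 for miR-22-3p, and TuD-let-7 to mock was 1.92 for miR-22-3p. The Mir22 arm ratios were then 10.5, 15.2 and 22.4, the tailed share of miR-22-3p differed by 0.98 (TuD-let-7 minus mock) and -5.40 points (TuD-miR-122 minus TuD-let-7), and its trimmed share by 1.69 and -2.71. Starts within 2 nt gave 0.999 for miR-152-3p in TuD-let-7 to mock (turned) and 202 for the Mir152 arm ratio in TuD-miR-122, and matches of at least 18 nt gave 0.688 for miR-22-3p in TuD-miR-122 to TuD-let-7. miRNAs past the 2-fold rule went from 42 to 64 in TuD-miR-122 against mock with a minimum of 20 reads, from 15 to 42 in TuD-let-7 against mock and from 43 to 65 between the decoys with all reads, and to 38 and 71 with a 1.5-fold rule.

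Tailed and trimmed differences follow in points, TuD-let-7 minus mock and then TuD-miR-122 minus TuD-let-7. Without reads with T at base 21, chosen after seeing the data, tailed shares differed by -0.40 and -1.54 (miR-148a-3p), -3.43 and 4.40 (miR-152-3p) and -0.0605 and -4.42 (miR-22-3p), turned in all but -1.54 and -4.42. Trimmed shares then differed by 0.25 and -0.25 (miR-148a-3p), 0.0467 and 0.34 (miR-148b-3p, the latter turned), 0.0210 and -0.24 (miR-152-3p) and 0.56 and -1.78 (miR-22-3p), since the reads left out held the excess. With trimming below 20 nt they were 0.22 and -0.23, 0.15 and 0.46 (turned), -0.0776 (turned) and -0.40, and 1.48 and -2.27, in that order. With tails of only A the tailed differences were -0.66 (turned) and -1.23 (miR-148a-3p), 1.92 and -1.19 (miR-152-3p) and -0.45 (turned) and -2.86 (miR-22-3p), with -1.56 for miR-148b-3p in TuD-let-7 minus mock and -3.31 for miR-22-3p in TuD-miR-122 minus mock. Without tails of a single A, TuD-miR-122 minus mock was -0.40 for miR-148a-3p and -1.40 for miR-22-3p, and TuD-miR-122 minus TuD-let-7 was -3.65 for miR-22-3p. Tails of at most 2 nt gave -0.0387 (turned) and -3.92 for miR-22-3p. Without tails that match again after 1 base, also chosen after seeing the data, the values were 0.20 and -2.08 for miR-148a-3p and -1.33 (turned) and -2.39 for miR-22-3p.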
